A study of Saccharomyces paradoxus and Saccharomyces cerevisiae and Nakaseomyces glabratus with 58 samples.

Results

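The proteins of the large subunit of the mitochondrial ribosome were followed through strains of 6 yeast species in which the transcription factor gene SFP1 had been deleted or altered. The members were the 43 Saccharomyces cerevisiae open reading frames that encode MRPL proteins and the other proteins of this subunit. In the other species a gene was a member when the deposited orthology table placed a listed S. cerevisiae gene in its orthogroup. This gave 43 of 6717 rows in S. cerevisiae, 40 of 6038 in Saccharomyces paradoxus, 44 of 5461 in Candida glabrata, 44 of 5926 in Naumovozyma castellii, 40 of 5318 in Kluyveromyces lactis and 40 of 6909 in Schizosaccharomyces pombe, or 251 of 36369 rows in all. MRPL16, MRPL37, MRPL39 and MRPL44 were not analysed here in S. paradoxus, MRPL3, MRPL6, MRPL9 and MRPL31 were not analysed here in the K. lactis libraries, and MRPL13, MHR1, MRPL50 and MRPL36 were not analysed here in S. pombe. The orthogroup of MRPL49 has 2 rows in each of S. paradoxus, C. glabrata, N. castellii and K. lactis and 1 in S. pombe. These rows are in the counts, medians and sums, and their own values are not reported here. All member rows except that of MRPL4 in S. pombe passed the filter on low counts.

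Polyadenylated RNA was sequenced from yeast cultures in 19 groups of 3 libraries, at log phase (optical density 0.6 to 0.8) unless lag phase is named. The S. cerevisiae groups were wild type, delta sfp1 and a strain with HA tagged Sfp1. S. paradoxus had wild type and delta sfp1 at log phase and again at 30 and 60 min of lag phase, after glucose was returned. C. glabrata and N. castellii each carry a pair of SFP1 copies, and each species had a wild type and the single deletions of either copy, delta CAGL0D00682g or delta CAGL0M09955g for C. glabrata, and delta Scas551.1 or delta Scas719.24 for N. castellii. Either pair shares its wild type, as do both altered strains of S. cerevisiae. K. lactis and S. pombe each had wild type and delta sfp1 groups. The labels give no strain background, mating type or number of independent clones for any group, and they do not say whether replicates A, B and C were separate cultures, so every p-value measures the spread between these libraries, which may be technical.

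The mitochondrial ribosome translates the few messages of the mitochondrial genome, which in budding yeasts encode mainly membrane subunits of the respiratory chain and of the ATP synthase. Its proteins, apart from a single small subunit protein in budding yeasts, are encoded in the nucleus, made in the cytosol and imported. Many descend from the bacterial ribosome, and others were added in the mitochondrial lineage. Sfp1 is known in S. cerevisiae as an activator of cytosolic ribosomal protein and ribosome biogenesis genes that responds to nutrients.

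Total counts per library ranged from 418292 to 3447874, except for 34081 in replicate A of the S. paradoxus deletion at 30 min, where 17 of the 40 members had no count. The deleted gene had no count in the deletions of S. cerevisiae, K. lactis and both C. glabrata copies, in delta Scas719.24 and in the S. paradoxus deletion at lag phase. It had 2 counts over the S. paradoxus log phase deletion libraries and 5 over those of delta Scas551.1. In S. pombe the libraries labelled deletion held 226 counts of SPAC16.05c, the gene in the orthogroup of SFP1, against 403 in wild type, so they are called libraries labelled deletion here. Levels are given as CPM, counts relative to a library size that was scaled by the trimmed mean of M values (TMM). A gene was called when its Benjamini-Hochberg adjusted p from edgeR's quasi-likelihood test over all genes of the species was below 0.05. A log2 fold change sets the altered strain against its wild type and carries its standard error after ±, unless SD is named. In cultures such as these, fewer cells with a message and less message per cell cannot be told apart.

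In S. cerevisiae the 43 genes lie on 13 chromosomes of the R64 assembly, with coding lengths from 213 bases in MRPL39 to 1182 in RML2 and a median of 645. Only YML6 and MRPL44 have 2 coding exons. On a scale of CPM per kilobase of coding length, wild type levels ran from 24.6 ± 6.49 (SD, n = 3) for MRPL25 to 111 ± 18.4 (SD, n = 3) for MNP1, the L7/L12 stalk protein. MRPL19 shares 113 bases with YNL184C on its own strand and MRPL51 shares 323 with YPR099C on the other, so their counts are uncertain.

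Promoters are shown because the motif AAAATTTT, the core of the ribosomal RNA processing element of S. cerevisiae, is far more frequent in promoters of ribosome biogenesis genes than in those of the members. The window ran from 250 bases before to 50 bases after the first coding base in the RefSeq annotation, and both strands were searched. AAAATTTT stood in 54 of 64 ribosome biogenesis promoters (84.4%), in 4 of the 43 member promoters (9.3%) and in 9.0% of all 6001 promoters. The shorter AATTTT, which lies within it, stood in 46.5% of the members and 51.7% of all promoters, and CCAAT, the letters recognised by the Hap activator of respiratory genes, in 37.2% and 43.3%. Among the 10 members described throughout, MNP1 (chrVII:374837-375136, plus strand) and RML2 (chrV:60802-61101, minus strand) held AAAATTTT. The match began at position -145 in MNP1 and -175 in RML2, counted from the first coding base as 0, and is in capitals.
MNP1: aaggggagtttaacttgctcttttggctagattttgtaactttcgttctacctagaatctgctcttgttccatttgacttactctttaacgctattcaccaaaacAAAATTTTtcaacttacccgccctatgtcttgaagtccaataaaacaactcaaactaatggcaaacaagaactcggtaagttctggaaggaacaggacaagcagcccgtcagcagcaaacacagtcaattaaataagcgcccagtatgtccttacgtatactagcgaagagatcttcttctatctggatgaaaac
RML2: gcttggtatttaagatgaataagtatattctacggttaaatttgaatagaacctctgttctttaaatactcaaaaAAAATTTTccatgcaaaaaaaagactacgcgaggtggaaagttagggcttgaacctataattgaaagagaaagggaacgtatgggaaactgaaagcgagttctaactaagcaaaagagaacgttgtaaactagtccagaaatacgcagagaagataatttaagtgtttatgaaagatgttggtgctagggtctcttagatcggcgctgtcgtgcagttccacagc
The other matches were in MRP49 and MRPL24, beyond the first coding base.

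The members moved in opposite directions in different species at log phase. Their median log2 fold change was -1.60 in the K. lactis deletion, -0.40 in the S. cerevisiae deletion, 0.35 in the S. paradoxus deletion, 0.35 in delta CAGL0M09955g of C. glabrata, and 0.83 and 1.02 in the N. castellii deletions delta Scas719.24 and delta Scas551.1. The median was 0.08 in delta CAGL0D00682g, 0.04 in the S. pombe libraries labelled deletion and -0.05 in the strain with HA tagged Sfp1. The median over all genes tested lay between -0.05 and 0.03 in these 9 log phase comparisons.

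**Figure D1:**
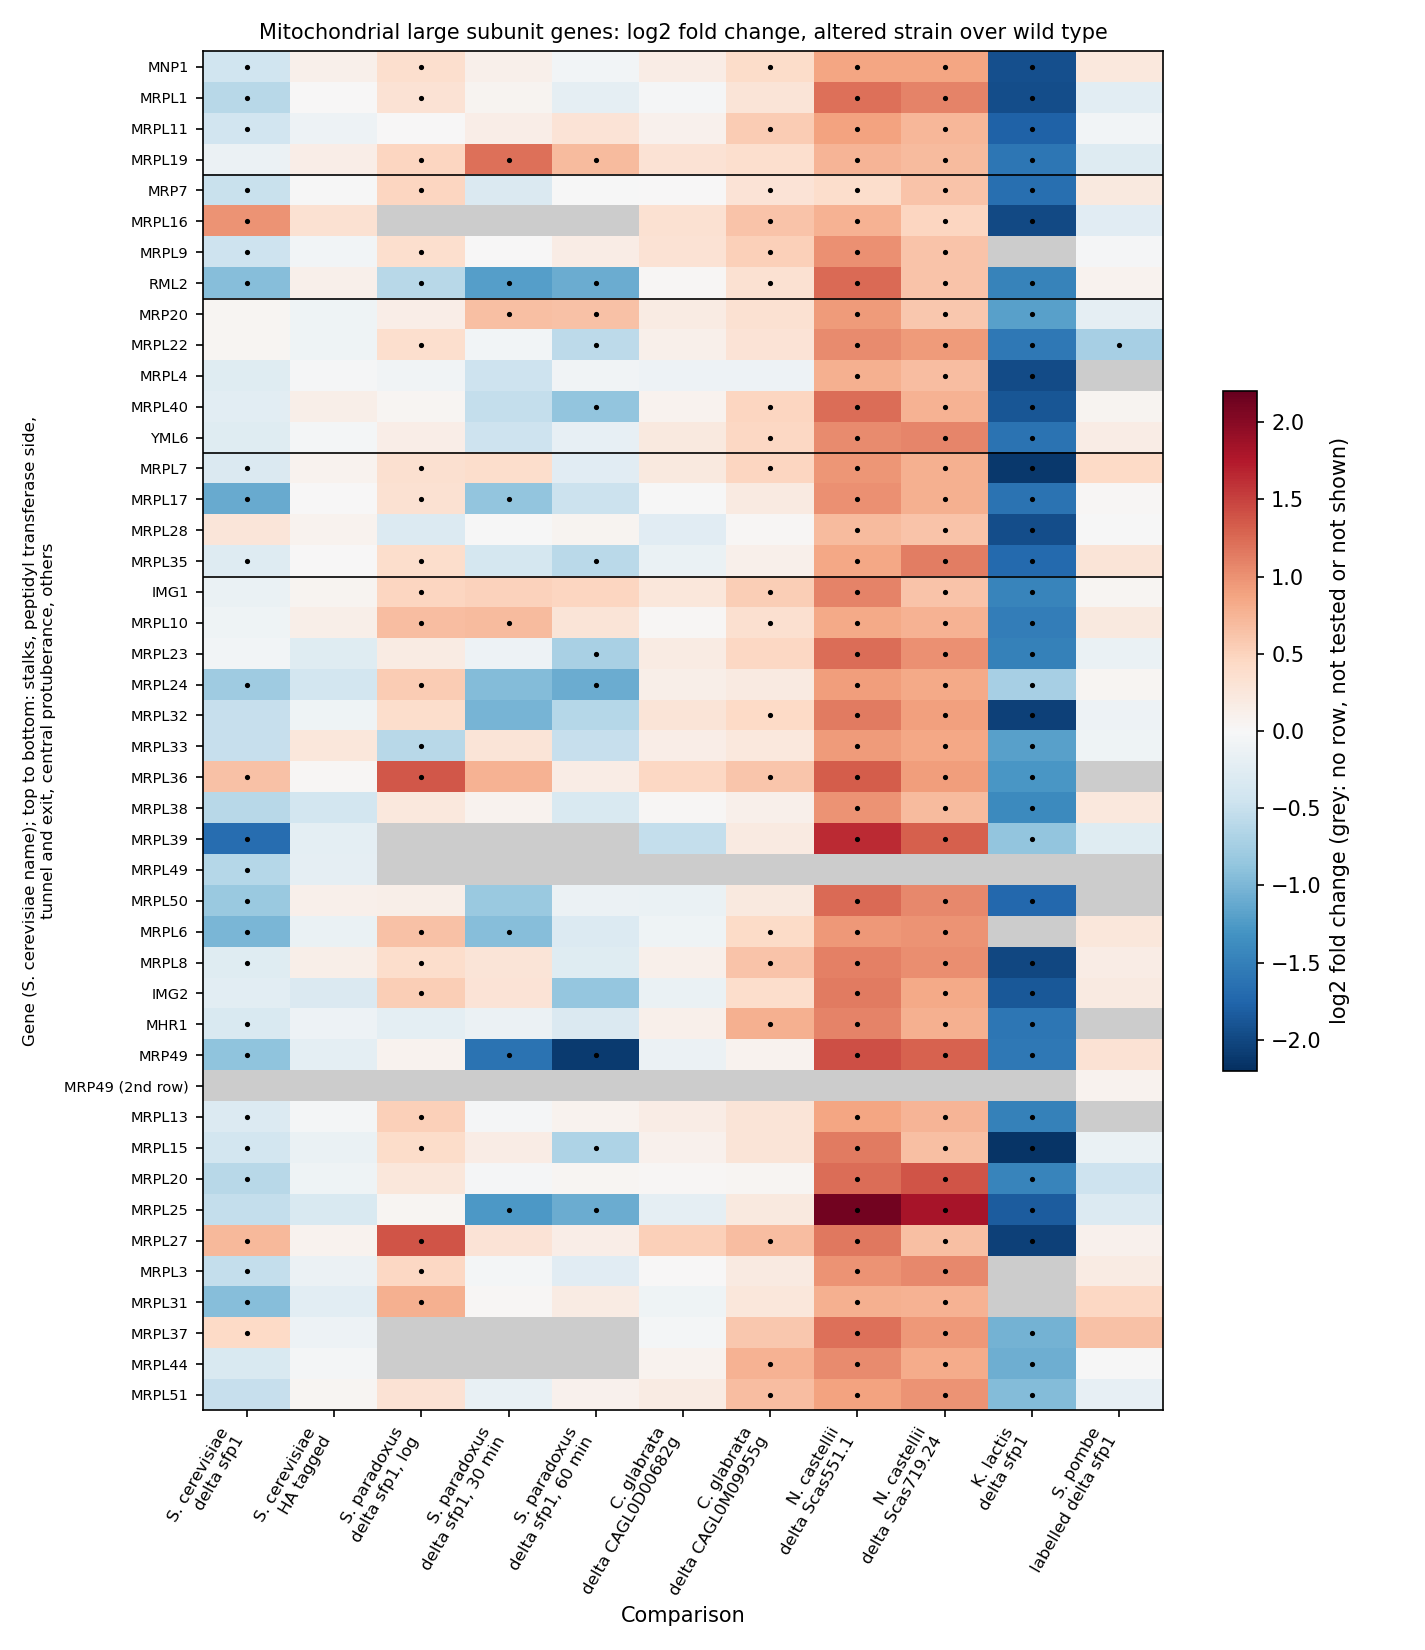
Log2 fold change (colour) of each member (rows, S. cerevisiae names, ordered by role) in the 11 comparisons of an altered strain with wild type (columns). Dots mark adjusted p below 0.05, grey marks no row, not tested or not shown, and second rows are second genes of an orthogroup. The K. lactis column is blue in every row that is not grey, from -2.15 to -0.73, and both N. castellii columns are red in every row that is not grey, from 0.39 to 2.13.

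**Figure D2:**
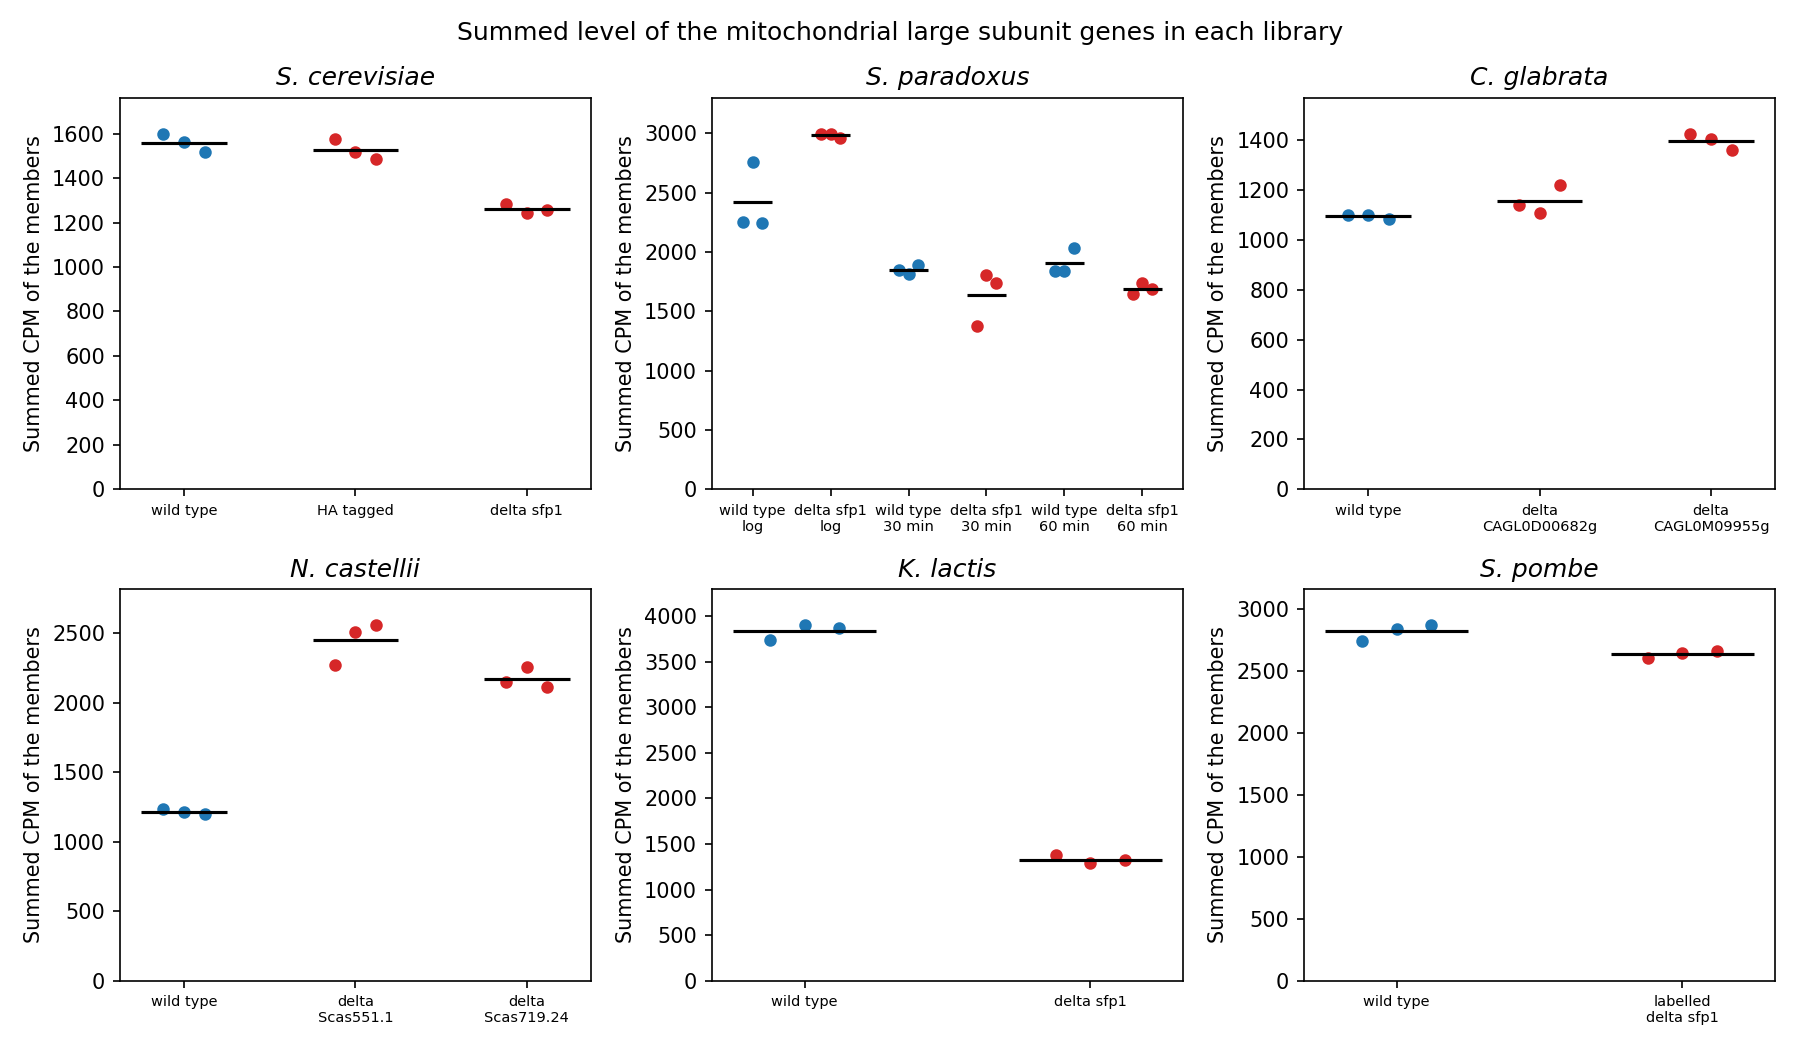
Summed CPM of the member rows in each library (points, A to C from left to right; wild type blue, altered strains red) with the group mean (line), 1 panel per species. The K. lactis deletion libraries sit at 1291 to 1376 against 3743 to 3908 in wild type, and the N. castellii deletions lie between 2115 and 2562 against 1200 to 1235.

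In K. lactis every member with a row was lower in the deletion. The summed level of the 40 members was 3743, 3908 and 3871 CPM in the wild type libraries and 1376, 1291 and 1321 CPM in the deletion, so the groups lay far apart. All 40 members were called lower and none higher, whereas 33.3% of the genes tested were called lower and 33.1% higher. Their changes ran from -2.15 to -0.73, and 36 fell by more than 1 on the log2 scale. The 26 genes of bacterial type and the 14 specific to mitochondria had nearly the same median, -1.61 and -1.60.

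By role, the K. lactis medians were -1.86 for the 4 stalk genes, -1.83 for the central protuberance, -1.65 for the peptidyl transferase side, -1.63 for tunnel and exit and -1.48 for the others. MNP1 (KLLA0D03212g), the stalk protein that recruits translation factors, stood at 171, 191 and 181 CPM in wild type and 55.4, 41.3 and 43.6 CPM in the deletion, a change of -1.93 ± 0.09 (adjusted p = 1.9e-12). MRPL1 (KLLA0F19272g), of the stalk near the exit site of transfer RNA, stood at 106, 106 and 102 CPM in wild type and 28.5, 27.4 and 25.0 CPM in the deletion (-1.95 ± 0.09, adjusted p = 2.4e-12). For both genes the lowest wild type library was more than 3 times the highest deletion library.

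On the peptidyl transferase side, RML2 (KLLA0A02035g) stood at 270.0, 274 and 279.5 CPM in wild type and 100.5, 96.0 and 99.2 CPM in the K. lactis deletion (-1.48 ± 0.07, adjusted p = 3.3e-12). MRP7 (KLLA0F12386g), whose bacterial counterpart reaches toward the catalytic centre, went from 175, 165 and 173 CPM to 57.6, 54.8 and 50 CPM (-1.65 ± 0.07, adjusted p = 7.8e-13). The groups did not overlap for either gene. YML6 and MRPL22, which line the exit tunnel, fell by 1.63 ± 0.09 and 1.58 ± 0.08 on the log2 scale, and MRPL17 of the central protuberance fell by 1.62 ± 0.10.

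The largest K. lactis falls were those of MRPL15 (KLLA0C17402g), MRPL7 (KLLA0C15257g) and MRPL32 (KLLA0F12826g). MRPL15 stood at 85.7, 84.4 and 85.7 CPM in wild type and 18.3, 18.0 and 21.4 CPM in the deletion (-2.15 ± 0.11, adjusted p = 5.9e-12). MRPL7, a protein of the central protuberance, changed by -2.11 ± 0.09 (adjusted p = 1.6e-12), and MRPL32, whose processing by a mitochondrial protease is a known step of ribosome assembly in S. cerevisiae, by -2.05 ± 0.13 (adjusted p = 2.5e-10). MRPL36 and MHR1, the latter also known for mitochondrial DNA recombination in S. cerevisiae, fell by 1.27 ± 0.13 and 1.59 ± 0.12 on the log2 scale. MRPL24 fell by 0.73 on the log2 scale.

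Other K. lactis genes of mitochondrial translation also fell. All 24 small subunit genes were called lower (median -1.45), led by RSM23 at -2.58 ± 0.11, and so were 7 of 7 translation factors (median -0.68), 8 of 8 mitochondrial tRNA synthetases (median -0.93) and 6 of 7 large subunit assembly genes (median -0.61). Of 25 oxidative phosphorylation genes, 15 fell and 2 rose (median -0.33). Ribosome biogenesis genes fell in 53 of 55 and cytosolic ribosomal protein genes in 59 of 59, with medians of -0.96 and -0.87, so in K. lactis these medians had the same sign as that of the members. The alpha-type mating gene STE3 rose with these changes by 1.41 ± 0.14, from 16.5 to 19.9 CPM in wild type to 44.7 to 52 CPM in the deletion, and the summed level of the 4 a-type markers was 156 to 174 CPM in wild type and 187 to 198 CPM in the deletion. That a-type sum includes rows from the orthogroup of BAR1, which also holds YPS genes, such as KLLA0F22088g at means of 86.7 and 88.4 CPM. Mean STE2 was 35.8 CPM in wild type and 27.5 CPM in the deletion, and mean STE6 was 44.4 and 74 CPM. The part of these mating markers in the result was not tested.

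In N. castellii every member was higher in both single deletions. The summed level of the 44 members was 1235, 1214 and 1200 CPM in wild type, 2274, 2513 and 2562 CPM in delta Scas551.1 and 2151, 2257 and 2115 CPM in delta Scas719.24. The wild type libraries lay far below all 6 deletion libraries. All 44 members were called higher and none lower in delta Scas551.1, where 21.4% of genes tested were called higher and 20.4% lower. All 44 were also called higher in delta Scas719.24, against 14.8% of genes higher and 11.3% lower. The deletions share the same wild type libraries, so these are not independent observations.

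The changes ran from 0.39 to 2.13 in delta Scas551.1, where 24 members rose by more than 1 on the log2 scale, and from 0.47 to 1.81 in delta Scas719.24, where 11 did. RML2 (NCAS0H02510) stood at 81.1, 93.7 and 86.5 CPM in wild type, 196, 206 and 217 CPM in delta Scas551.1 and 143, 139 and 122 CPM in delta Scas719.24. Its log2 fold change was 1.24 ± 0.09 (adjusted p = 1.5e-10) in the former and 0.63 ± 0.09 (adjusted p = 1.1e-05) in the latter, and the 3 groups did not overlap. MRPL1 (NCAS0B03810) stood at 47.7, 52.0 and 41.1 CPM in wild type, 103, 117 and 108 CPM in delta Scas551.1 and 98.8, 103 and 97.8 CPM in delta Scas719.24, with changes of 1.21 ± 0.10 (adjusted p = 1.8e-09) and 1.08 ± 0.10 (adjusted p = 1.1e-08). Here the deletions overlapped each other and both lay above wild type. MNP1 (NCAS0D03810) rose by 0.87 ± 0.11 and 0.87 ± 0.10.

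MRP7 (NCAS0G04240) had the smallest change in delta Scas551.1, 0.39 ± 0.10 (adjusted p = 0.00471), from 62.4, 62.0 and 74.2 CPM to 84.6, 94.2 and 79.3 CPM, and 0.62 ± 0.10 (adjusted p = 3.0e-05) in delta Scas719.24. The groups did not overlap for this gene either. The tunnel genes YML6 and MRPL22 both rose by 1.03 ± 0.14 in delta Scas551.1, and by 1.08 ± 0.13 and 0.93 ± 0.13 in delta Scas719.24. MRPL17 rose by 1.002 ± 0.11 and 0.78 ± 0.10, MRPL32 by 1.14 ± 0.15 and 0.91 ± 0.15, MRPL36 by 1.34 ± 0.17 and 0.91 ± 0.17 and MHR1 by 1.09 ± 0.11 and 0.79 ± 0.11, in that order of deletions.

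The largest rise in each N. castellii deletion was that of MRPL25. MRPL25 (NCAS0I02230) rose from 2.02, 2.59 and 1.08 CPM to 7.34, 10.02 and 8.43 CPM in delta Scas551.1 (2.13 ± 0.35, adjusted p = 3.5e-05) and to 7.52, 5.52 and 7.50 CPM in delta Scas719.24 (1.81 ± 0.34, adjusted p = 0.00029). MRPL39 (NCAS0H02600) rose by 1.64 ± 0.39 and 1.31 ± 0.38, from wild type levels of 1.94 to 3.75 CPM. MRP49 rose by 1.41 ± 0.25 in delta Scas551.1 and MRPL20 by 1.39 ± 0.13 in delta Scas719.24. MRPL25 and MRPL39 stood under 4 CPM in every wild type library, and their standard errors were the widest of those given for the N. castellii deletions against wild type.

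Between the N. castellii deletions, 10 members were called higher in delta Scas551.1 than in delta Scas719.24 and 1 lower, against 11.3% and 12.9% of genes tested, with a median difference of 0.17. RML2 differed most (0.62 ± 0.09, adjusted p = 9.2e-06), followed by MRPL27 (0.50 ± 0.16) and MRPL15 (0.49 ± 0.15), and MRPL35, of the central protuberance, was lower (-0.27 ± 0.09, adjusted p = 0.0355). This count fell to 3 with DESeq2 or without delta Scas551.1 replicate C, to 4 without delta Scas719.24 replicate B or C, to 6 without delta Scas551.1 replicate B and to 7 when only the 2 groups entered the fit, and it was 30 without composition scaling.

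The N. castellii genes around the members split by system. Of 33 small subunit genes, 32 rose in delta Scas551.1 and 33 in delta Scas719.24, with medians of 1.02 and 0.82, led in both by MRP2 (1.83 ± 0.16 and 1.23 ± 0.16). Translation factors rose in 7 and 8 of 8. Oxidative phosphorylation genes rose in 33 of 33 in delta Scas551.1 (median 1.92) and in 21 of 33 in delta Scas719.24 (median 0.55). Ribosome biogenesis genes fell in 58 and 35 of 64, with medians of -0.70 and -0.28. Mating type moved with the deletions: the summed level of the 5 alpha-type markers was 802 to 1010 CPM in wild type, 24 to 30.4 CPM in delta Scas551.1 and 22.8 to 32.8 CPM in delta Scas719.24, with 1 of the 5 at 0 in both deletions, and that of the 7 a-type markers was 208 to 215, 333 to 346 and 302 to 333 CPM. That a-type sum includes rows from the orthogroup of BAR1, which also holds YPS genes. All 4 alpha-type markers tested fell in each deletion, with medians of -5.69 and -6.63, so deletion of an SFP1 copy and this difference in mating type cannot be told apart against wild type.

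**Figure D3:**
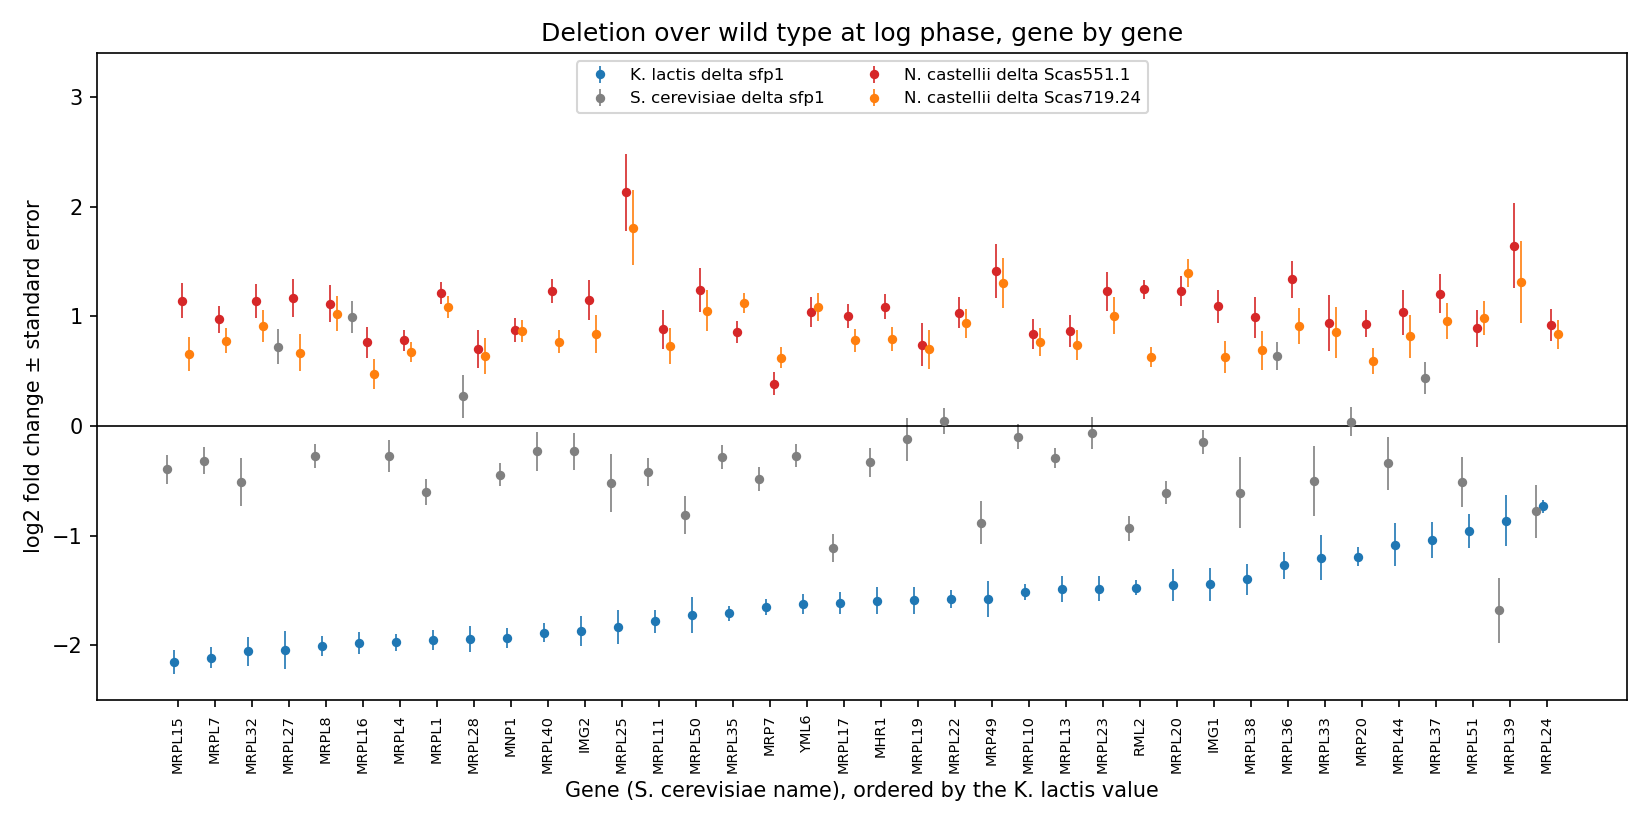
Log2 fold change ± standard error (vertical axis) of the 38 members with a single row in K. lactis (horizontal axis, ordered by the K. lactis value) in the K. lactis, S. cerevisiae and both N. castellii deletions. All 38 were called lower in K. lactis and higher in both N. castellii deletions, and the S. cerevisiae values lie between the other series for all but MRPL16, MRPL27, MRPL24 and MRPL39.

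In S. cerevisiae the members had a median log2 fold change of -0.40 in the deletion, with calls in both directions. Their summed level was 1519 to 1600 CPM in wild type, 1242 to 1284 CPM in delta sfp1 and 1488 to 1577 CPM in the HA tagged strain. The deletion lay below both other groups without overlap. Of the 43 members, 22 were called lower and 4 higher in the deletion, against 26% of genes tested in each direction. None was called in the HA tagged strain, where edgeR called 0% of genes tested, 0 members had an unadjusted p under 0.05 and DESeq2 likewise called 0. On unscaled library sizes the all-gene median of the deletion shifted by 0.23, and 10 members were called lower and 5 higher. DESeq2 called 15 lower and 3 higher in the deletion, and leaving out 1 library gave 18 to 21 lower. On unscaled library sizes the members' median relative to that of all genes was -0.43, as with TMM. Scaling shifts all genes nearly alike, so this relative value could hardly differ and does not test how the calls depend on scaling.

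MRPL39 (YML009C) had the largest fall in S. cerevisiae, from 16.3, 14.3 and 9.02 CPM in wild type to 3.45, 3.51 and 4.87 CPM in the deletion (-1.68 ± 0.30, adjusted p = 1.7e-04). MRPL17 (YNL252C) stood at 41.0, 41.6 and 48.6 CPM in wild type and 22.0, 19.3 and 19.8 CPM in the deletion (-1.11 ± 0.13, adjusted p = 1.7e-06), and MRPL6 (YHR147C) at 37.9, 33.1 and 28.6 CPM and 16.0, 16.5 and 16.2 CPM (-1.005 ± 0.15, adjusted p = 2.2e-05). Neither group pair overlapped. RML2 (YEL050C), whose promoter holds AAAATTTT, fell from 81.3, 73.7 and 67.8 CPM to 39.5, 42.8 and 33.2 CPM (-0.93 ± 0.11, adjusted p = 2.8e-06), and MNP1 (YGL068W), the other such gene shown, from 54.2, 75.7 and 64.3 CPM to 48.3, 47.4 and 50.6 CPM (-0.44 ± 0.11, adjusted p = 0.00212).

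MRPL1 (YDR116C), MRP7 (YNL005C) and MHR1 (YDR296W) also fell, by 0.60 ± 0.12 (adjusted p = 4.0e-04), 0.49 ± 0.11 (adjusted p = 0.00148) and 0.33 ± 0.13 (adjusted p = 0.0408) on the log2 scale. None of the 5 tunnel and exit genes was called. Among them YML6 (YML025C) was at -0.27 ± 0.11 (adjusted p = 0.0504) and MRPL22 (YNL177C) at 0.05 ± 0.12 (adjusted p = 0.776), and MRPL32 (YCR003W) was at -0.51 ± 0.22 (adjusted p = 0.0587). These do not show that the genes kept their level.

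The 4 members that rose in the S. cerevisiae deletion were MRPL16, MRPL27, MRPL36 and MRPL37. MRPL16 (YBL038W), on the peptidyl transferase side, went from 19.4, 31.4 and 23.1 CPM to 49.9, 50.2 and 53.6 CPM (0.995 ± 0.14, adjusted p = 2.2e-05), without overlap. MRPL27 (YBR282W) rose by 0.72 ± 0.16 (adjusted p = 0.00126) and MRPL36 (YBR122C) by 0.64 ± 0.13 (adjusted p = 5.0e-04). Small subunit genes followed the members, with 18 of 33 lower and 3 higher (median -0.33), and TUF1, the mitochondrial elongation factor, fell by 0.87 ± 0.07. Ribosome biogenesis genes fell in 56 of 64 (median -0.73) and cytosolic ribosomal protein genes in 126 of 137 (median -0.82), while oxidative phosphorylation genes rose in 7 and fell in 3 of 32. The a-type markers stood at a sum of 1650 to 1670 CPM in wild type and 944 to 979 CPM in the deletion, and the alpha-type markers at 32 to 40.9 and 80.4 to 90 CPM. Of the a-type markers 4 of 6 fell and of the alpha-type markers 2 of 3 tested rose. Their part in the result was not tested.

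In S. paradoxus most called members rose at log phase, and fewer were called at lag phase. At log phase the summed level was 2253, 2757 and 2247 CPM in wild type and 2998, 2995 and 2956 CPM in the deletion, with wild type replicate B closest to the deletion. Of 40 members, 21 were called higher and 3 lower, against 24.8% and 32.6% of genes tested. Without wild type replicate A the calls were 11 higher and 4 lower, without replicate B they were 23 and 1, and without composition scaling they were 36 and 0.

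MRPL27 (Spar_2.458) and MRPL36 (Spar_2.280) rose most at log phase. MRPL36 stood at 43.5, 40.02 and 43.01 CPM in wild type and 115, 104 and 106 CPM in the deletion (1.37 ± 0.14, adjusted p = 1.6e-10), and MRPL27 at 29.7, 30.4 and 22.3 CPM and 81.6, 73.6 and 63.0 CPM (1.39 ± 0.17, adjusted p = 9.7e-09). The groups lay far apart for both, which were also among the 4 that rose in S. cerevisiae. MRPL31 rose by 0.78 ± 0.19, MRP7 by 0.47 ± 0.13, MRPL22 by 0.37 ± 0.12, MNP1 by 0.36 ± 0.12, MRPL17 by 0.34 ± 0.15 and MRPL1 by 0.31 ± 0.13.

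RML2 (Spar_5.26) had the largest fall in S. paradoxus at log phase. It stood at 114, 149.5 and 121 CPM in wild type and 81.9, 85.3 and 87.0 CPM in the deletion (-0.61 ± 0.12, adjusted p = 6.9e-05). It was also lower at 30 min (-1.22 ± 0.27, adjusted p = 0.00029), where wild type stood at 106, 69.6 and 79.0 CPM and the deletion at 80.9, 35.7 and 32.5 CPM, and at 60 min (-1.09 ± 0.21, adjusted p = 5.8e-05), at 90.6, 69.9 and 104 CPM against 33.5, 40.6 and 46.4 CPM. The groups overlapped at 30 min through the shallow deletion replicate A and were apart at the other times. MRPL33 was also lower at log phase, at -0.60 ± 0.20. MHR1 was at -0.22 ± 0.12 (adjusted p = 0.0983) and at 0.28 without composition scaling, and YML6 and MRPL32 were not called.

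During lag phase few S. paradoxus members were called. At 30 min, 3 were higher and 5 lower, against 28.3% and 24.6% of genes tested, and at 60 min 2 were higher and 10 lower, against 25.7% and 25%. In neither direction was the members' share at these times above that of all genes. Apart from the shallow deletion replicate A, lag phase libraries held 418292 to 640282 counts, against 1480441 to 2252817 at log phase. The part of this lower depth in the smaller number of calls was not tested. The summed levels were 1816 to 1887 CPM in wild type and 1375 to 1810 CPM in the deletion at 30 min, and 1841 to 2031 and 1644 to 1742 CPM at 60 min, lower than at log phase in both strains. MRP49 (Spar_11.80) was lowest in the deletion at both times. At 30 min it stood at 0, 0 and 9.55 CPM against 16.9, 18.3 and 12.5 CPM (-1.63 ± 0.63, adjusted p = 0.030). The first 0 is from the shallow deletion replicate A, where 17 members had no count. At 60 min MRP49 stood at 4.18, 4.51 and 4.22 CPM against 22.7, 16.3 and 18.0 CPM (-2.10 ± 0.50, adjusted p = 0.00074). MRPL25 fell by 1.26 ± 0.46 and 1.09 ± 0.34 on the log2 scale, while the stalk gene MRPL19 rose by 1.21 ± 0.39 and 0.70 ± 0.29 and the exit gene MRP20 by 0.66 ± 0.23 and 0.64 ± 0.19. MRPL10 was higher at 30 min (0.69 ± 0.28, adjusted p = 0.0363). MRPL17 was lower at 30 min (-0.87 ± 0.30) and MRPL22 at 60 min (-0.57 ± 0.20).

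The count at 30 min depended on which libraries entered. It was 2 without deletion replicate B, 5 without deletion replicate C, 4 and 5 without wild type replicates B and C, and 8 without the shallow replicate A. With other scaling factors the split of calls moved from 3 higher and 5 lower to 1 and 8 at 30 min, or to 4 and 4 without composition scaling, and the latter moved it from 2 higher and 10 lower to 6 and 3 at 60 min.

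The deletion effect itself was compared between phases. It was lower at 60 min of lag than at log phase for 17 members and higher for 1, against 9.11% and 16.1% of genes tested, and lower at 30 min for 6 and higher for none, against 11.7% and 20.1%. The count at 30 min was 3 without deletion replicate B or wild type replicate C of that time, 13 with relative log expression factors and 20 without composition scaling. The largest differences were those of MRP49 at 60 min (-2.17 ± 0.56) and MRPL24 at 60 and 30 min (-1.65 ± 0.36 and -1.51 ± 0.48), and MRPL6 at 30 min (-1.58 ± 0.41). The effect differed between 60 and 30 min for no member, against 15.3% of genes tested, with 3 at an unadjusted p below 0.05 and none by DESeq2. Within wild type, 2 members differed between 60 and 30 min, against 36.6% of genes tested, which were MRPL36 (0.86 ± 0.30) and MRPL4 (-0.56 ± 0.20). Without composition scaling 4 were higher and none lower, and a single member was called without wild type replicate A or C at 30 min or without B or C at 60 min. Within the deletion none did in edgeR, against 22.7%, with 2 at an unadjusted p below 0.05 and none by DESeq2, and leaving out deletion replicate A or C at 30 min gave 1 call.

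Mating type moved with some of these S. paradoxus groups. At log phase the summed level of the 4 alpha-type markers was 31.1 to 35.6 CPM in wild type and 3700 to 4200 CPM in the deletion, and that of the 8 a-type markers was 1830 to 1960 and 597 to 646 CPM, so at log phase deletion and mating type cannot be told apart. At 30 and 60 min the alpha-type sum was 963 to 1140 CPM in wild type and 3080 to 4000 CPM in the deletion, and the a-type sum was 511 to 563 and 815 to 981 CPM. Most rows in the a-type sums are from the orthogroup of BAR1, which also holds YPS genes. Mean STE2 was 16.8 and 14 CPM in wild type at 30 and 60 min, and 18.8 and 13.7 CPM in the deletion. Mean STE6 was 6.67 and 13.3 CPM in wild type and 12.2 and 22 CPM in the deletion. At log phase STE2 stood at 620 CPM in wild type and 15 CPM in the deletion. The difference between phases therefore also compares wild type libraries that differ in these markers. Small subunit genes rose in 19 of 33 at log phase (median 0.41) and oxidative phosphorylation genes in 28 of 29 (median 1.02), while ribosome biogenesis genes fell in 59 of 61 and cytosolic ribosomal protein genes in 88 of 89, with medians of -0.98 and -1.18.

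In C. glabrata members were called in 1 of the 2 deletions. Their summed level was 1085 to 1100 CPM in wild type, 1108 to 1222 CPM in delta CAGL0D00682g and 1361 to 1427 CPM in delta CAGL0M09955g. In delta CAGL0M09955g, which lay above both other groups, 19 of 44 members were called higher and none lower, against 15% and 18.6% of genes tested. In delta CAGL0D00682g none was called, against 0.567% of genes tested, with 5 at an unadjusted p below 0.05 in edgeR and none called by DESeq2. DESeq2 called 8 in delta CAGL0M09955g, edgeR called 10 without wild type replicate C, and without composition scaling it called 29.

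MHR1 (CAGL0H01353g) rose most in delta CAGL0M09955g, from 26.8, 26.7 and 28.0 CPM in wild type to 45.5, 51.6 and 43.3 CPM (0.78 ± 0.13, adjusted p = 1.5e-06), with 29.0, 27.3 and 31.8 CPM in delta CAGL0D00682g. The delta CAGL0M09955g libraries lay above all the others. MRPL44 rose by 0.76 ± 0.28 (adjusted p = 0.0281), MRPL51 by 0.68 ± 0.20 (adjusted p = 0.00549) and MRPL36 by 0.62 ± 0.22 (adjusted p = 0.0203). MNP1 (CAGL0H03531g) stood at 46.7, 42.6 and 46.4 CPM in wild type and 57.9, 61.9 and 59.3 CPM in delta CAGL0M09955g (0.40 ± 0.11, adjusted p = 0.00229). YML6, MRPL32, RML2 and MRP7 rose by 0.45 ± 0.15, 0.44 ± 0.16, 0.33 ± 0.11 and 0.30 ± 0.11, while MRPL22, MRPL1 and MRPL17 were at 0.30 ± 0.14, 0.28 ± 0.17 and 0.19 ± 0.18 and were not called.

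Set directly against delta CAGL0D00682g, 11 members were higher in delta CAGL0M09955g and none lower, against 12.3% and 17.2% of genes tested, led by MRPL44 (0.68 ± 0.27), MHR1 (0.67 ± 0.13) and IMG2 (0.54 ± 0.19). This count was 5 with DESeq2 or without delta CAGL0M09955g replicate A and 25 without composition scaling. In delta CAGL0M09955g against wild type, small subunit genes rose in 13 of 34 (median 0.31) and oxidative phosphorylation genes in 30 of 35 (median 0.61). Ribosome biogenesis genes fell in 62 of 65 (median -0.57) and cytosolic ribosomal protein genes in 77 of 84 (median -0.29). The alpha-type markers summed to 21.8 to 32.2 CPM in wild type and 32.4 to 37.3 CPM in delta CAGL0M09955g, and the a-type markers to 280 to 296 and 308 to 338 CPM. Most rows in that a-type sum are from the orthogroup of BAR1, which also holds YPS genes. Mean STE2 was 18.2 CPM in wild type and 17.8 CPM in delta CAGL0M09955g, and mean STE6 was 7.14 and 7.08 CPM.

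In S. pombe 2 of 39 members were called lower and none higher in the libraries labelled deletion, against 6.82% and 3.19% of genes tested. MRPL22 (SPCC1739.02c) stood at 37.6, 43.3 and 36.2 CPM in wild type and 23.7, 21.9 and 26.3 CPM in the libraries labelled deletion (-0.73 ± 0.16, adjusted p = 0.0195). The groups did not overlap for this gene. Only 1 of the 2 was called with the replicate block, with DESeq2, or without wild type replicate B or replicate A or B of the libraries labelled deletion, and without composition scaling 1 member was called higher. RML2 was at 0.08 ± 0.10 and MNP1 at 0.22 ± 0.09, neither called. 

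**Figure D4:**
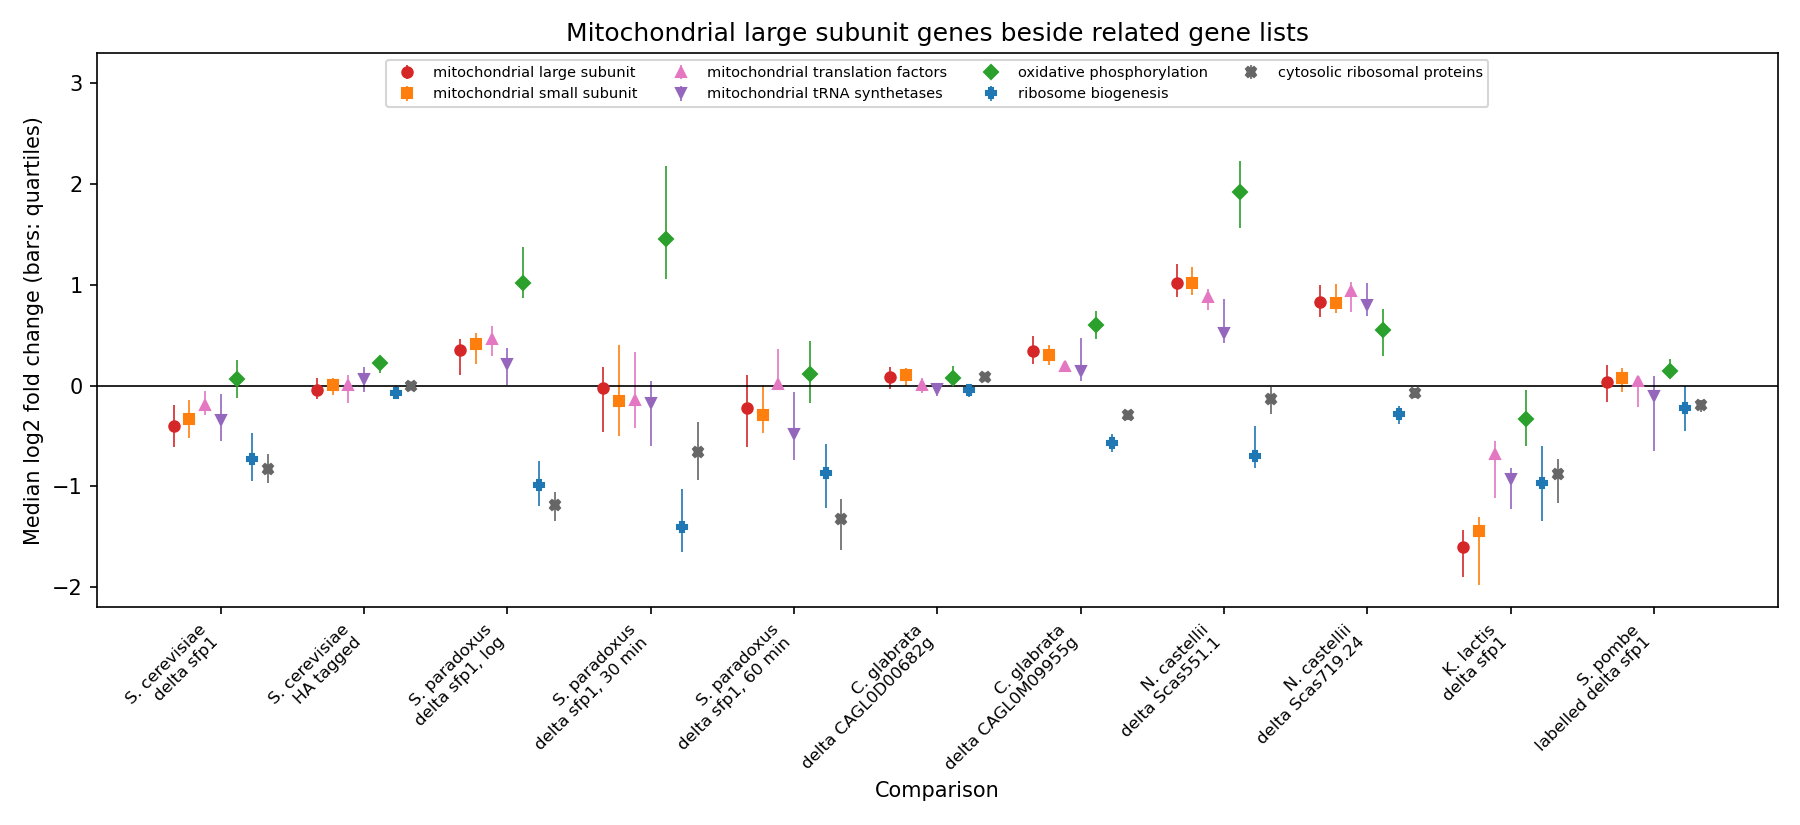
Median log2 fold change (vertical axis, bars from the first to the third quartile) of the members and of 6 related gene lists in the 11 comparisons of an altered strain with wild type (horizontal axis). The large and small subunit symbols lie close together, at -1.60 and -1.45 in K. lactis and 1.02 and 1.02 in delta Scas551.1, and the ribosome biogenesis median is below 0 in every comparison.

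The differences between species were tested on orthogroups with a single gene in both, as the deletion effect minus that in the S. cerevisiae deletion. In K. lactis the effect was lower for 34 of 38 members and higher for none, against 31.5% and 23% of genes tested (median -1.36). MRPL16 differed most (-2.97 ± 0.17), since it rose in S. cerevisiae and fell from 102, 94.6 and 100.1 CPM to 22.4, 23.7 and 29.4 CPM in K. lactis. MRPL33, MRPL51, MRPL24 and MRPL39 were not called. In S. paradoxus at log phase the effect was higher for 29 of 38 and lower for none, against 13.8% and 16.4% (median 0.80), led by MRPL31 (1.77 ± 0.28) and MRPL6 (1.69 ± 0.22), and RML2 was among the 9 not called.

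In N. castellii the effect was higher than in S. cerevisiae for 39 of 42 members and lower for none in delta Scas551.1, against 22.5% and 19.7%, and higher for 37 and lower for 1 in delta Scas719.24, against 23.3% and 18%. MRPL39 differed most, by 3.299 ± 0.49 and 2.97 ± 0.42, and MRPL25 by 2.66 ± 0.44 and 2.34 ± 0.43. The lower one was MRPL16, at -0.52 ± 0.20. In C. glabrata it was higher for 28 of 42 and lower for none in delta CAGL0M09955g, against 20% and 16.6%, and higher for 17 and lower for 1 in delta CAGL0D00682g, against 19.8% and 14.6%. Without composition scaling the latter split was 6 higher and 2 lower. Against its own wild type, delta CAGL0D00682g had no member and 0.567% of genes called. The members' median was 0.08 there and -0.40 in the S. cerevisiae deletion, so most of this difference lay on the S. cerevisiae side. All 6 tests use the same S. cerevisiae libraries.

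The authors' deposited table of microarray log ratios covers other times, named 15 to 90 min in its columns, in a base and replication not stated. Its sign was turned so that the deleted gene is low, and its values have no error here. In the authors' deposited table the K. lactis members, here 44 with MRPL3, MRPL6, MRPL9 and MRPL31 included, had medians of -1.50, -1.01 and -0.86 at 30, 60 and 90 min, and 42, 41 and 43 of them were below 0. MNP1 was at -2.48, -1.60 and -1.30 and RML2 at -0.95, -0.54 and -0.60 in the authors' deposited table, while MRPL9, not among the counted rows, was at -2.02, -1.35 and -1.17.

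The N. castellii members did not show the log phase rise at these times. In the authors' deposited table their medians were 0.00, -0.16 and -0.34 in delta Scas551.1 and -0.07, -0.19 and -0.36 in delta Scas719.24 at 30, 60 and 90 min, with 43 and 35 of 44 below 0 at 90 min. Among single genes in delta Scas719.24, MRPL1 was at 1.14, 0.62 and 0.28 and MRP7 at -0.66, -0.75 and -0.72 in the authors' deposited table. In S. cerevisiae its columns named BY and RM had medians between -0.23 and 0.16 over their times. In C. glabrata the authors' deposited table had medians of 0.02, 0.11 and 0.13 in delta CAGL0D00682g at 30, 60 and 90 min. In delta CAGL0M09955g they were 0.09, 0.07 and 0.06, with 16, 17 and 19 of 42 members below 0. There MHR1 was at 0.65, 0.43 and 0.43 and MNP1 at -0.76, -0.76 and -0.37 in the authors' deposited table. In S. pombe the authors' deposited table has the deleted gene between -8.07 and -7.50 and the member medians at -0.14, -0.04 and -0.07.

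**Figure D5:**
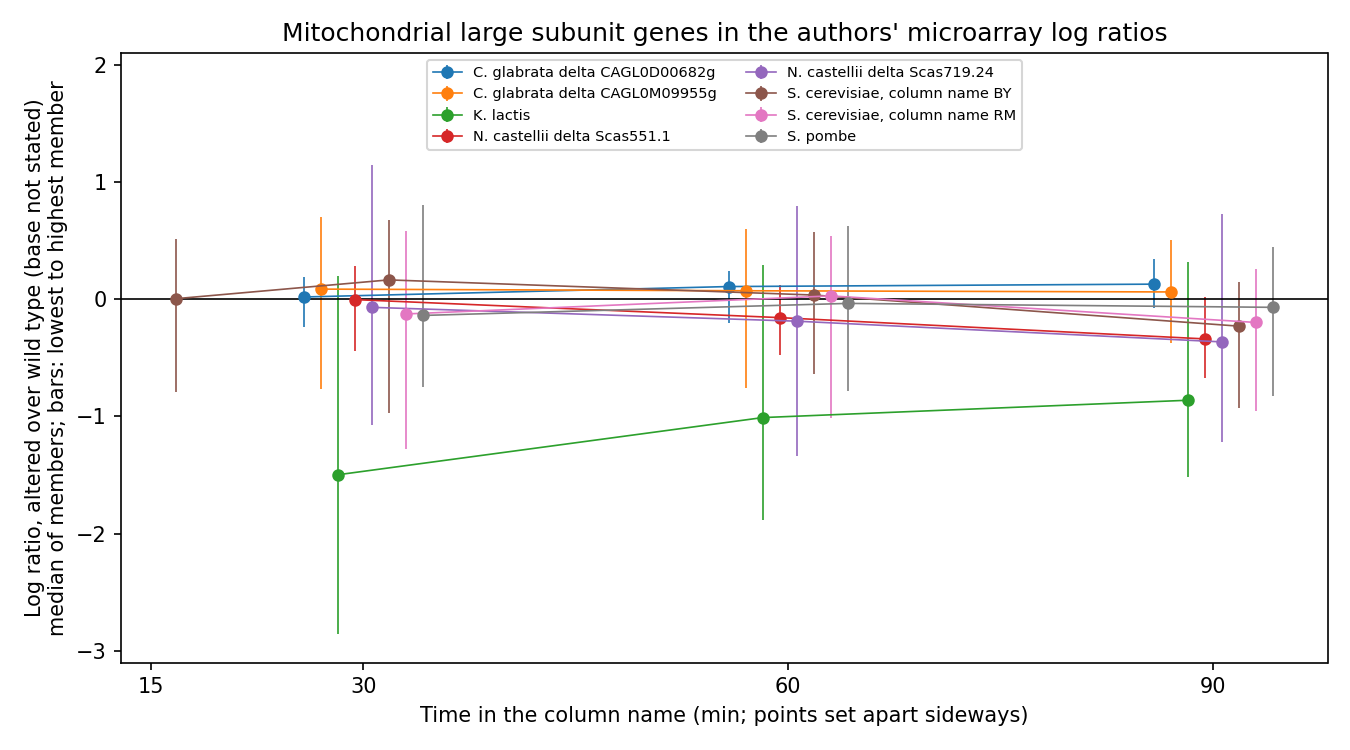
Median log ratio of the members (points; bars from the lowest to the highest member) in the authors' deposited microarray columns against the time in the column name, altered strain over wild type, in a base not stated. The K. lactis line stays lowest, from -1.50 to -0.86, and both N. castellii lines go from near 0 to -0.34 and -0.36.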

How the data were processed

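Estimated counts per gene came from the authors, who per the submitters' processing notes used RSEM 1.2.11 with Bowtie 1 on paired 25-base reads of polyA RNA. The notes name edgeR and a single build, ASM294v2, with no species beside it; any further build is not given in the sources used here. Between 57.07% and 97.35% of the deposited estimated counts in a library were whole within 1e-06, and all were rounded before testing. The authors also deposited log2 fold changes and microarray log ratios per gene, whose base and replication are not stated and which are described only. Orthologues came from the authors' deposited orthology table. Counts of 57 of the 58 samples were used, and 1 sample was not analysed here.

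For each species 1 edgeR 4.0.16 quasi-likelihood model (R 4.3.3) was fitted to all groups and genes with TMM factors after edgeR's filter on low counts, with Benjamini-Hochberg adjustment over all genes tested and a threshold of 0.05. Effects in different species were compared by the difference of their log2 fold changes over single-gene orthogroups, from 1 fit of both species. Alternatives were relative log expression (RLE) factors, unscaled library sizes, no filter, DESeq2 1.42.0, the replicate letter as a block, only the 2 groups compared and leaving out each library. The code was tested on simulated data. S. cerevisiae coordinates and promoters are from RefSeq's R64 assembly, in which 692 of the 6717 counted rows have no gene. The members, roles and gene lists were chosen with earlier results of these data known. The genes named are a panel of 10 across the roles (MRPL1, MNP1, RML2, MRP7, YML6, MRPL22, MRPL17, MRPL32, MRPL36 and MHR1) and up to 3 called members with the largest rise and fall in a comparison, with the largest change of a related list. Any others, such as members not called, were named after their values were seen.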

Additional observations from a re-analysis of the deposited data

Results flagged for a closer look

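These results are counts of members whose change differed between groups by a test of the difference itself, each beside the share of all genes tested that was called the same way. Several of these counts are near or below that share. The S. paradoxus deletion effect differed from that at log phase for 6 of 40 members at 30 min of lag, all lower, against 11.7% of genes lower and 20.1% higher. At 60 min it differed for 18 of 40, with 17 lower and 1 higher against 9.11% and 16.1%. Between the deletions of either SFP1 copy, 11 of 44 members differed in C. glabrata, all higher in delta CAGL0M09955g, against 12.3% of genes higher and 17.2% lower. In N. castellii 11 of 44 differed, 10 higher in delta Scas551.1 and 1 lower, against 11.3% and 12.9%. Set against the S. cerevisiae deletion, the effect was called different for 29 of 38 members in S. paradoxus at log phase, all higher, where 13.8% of genes were higher and 16.4% lower. In K. lactis it differed for 34 of 38, all lower, against 31.5% lower and 23% higher. In delta CAGL0D00682g it differed for 18 of 42, 17 higher and 1 lower, against 19.8% and 14.6%, and for 8 on unscaled library sizes, although no member was called in that deletion against its own wild type. In delta CAGL0M09955g it differed for 28 of 42, all higher, against 20% higher and 16.6% lower. In delta Scas551.1 it differed for 39 of 42, all higher, against 22.5% higher and 19.7% lower, and in delta Scas719.24 for 38, with 37 higher and 1 lower, against 23.3% and 18%. The mating markers given beside the S. paradoxus and N. castellii results moved with the groups compared with wild type there, and their part in these differences was not tested.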

How the results depend on the processing

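The counts of 40 members lower in K. lactis and 44 higher in delta Scas551.1 did not change under any alternative, and the 44 of delta Scas719.24 were 43 or 44. On unscaled library sizes the count of called members was 15 in the S. cerevisiae deletion, 29 in delta CAGL0M09955g, 25 between the C. glabrata deletions, 30 between the N. castellii deletions, 4 and 6 between lag times in S. paradoxus wild type and deletion, 20 for the effect at 30 min minus log, 1 for that at 60 minus 30 min and 8 for delta CAGL0D00682g minus S. cerevisiae. DESeq2 called 8 in delta CAGL0M09955g, 5 between the C. glabrata deletions, 3 between the N. castellii deletions and 1 in S. pombe. The effect at 30 min minus log had 13 calls with RLE factors and 17 without the filter, and that at 60 minus 30 min had 1 without the filter. Fitting only the 2 N. castellii deletions gave 7.

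Leaving out 1 library gave 15 to 24 calls in S. paradoxus at log phase, 2 to 9 at 30 min, 1 to 3 between lag times in wild type and 0 to 1 in the deletion, and 3 to 7 for the effect at 30 min minus log. It gave 10 to 17 in delta CAGL0M09955g, 5 to 10 between the C. glabrata deletions, 3 to 10 between the N. castellii deletions and 1 to 2 in S. pombe. Without composition scaling 2 named changes turned sign: Spar_4.672 (MHR1) to 0.28 in the S. paradoxus log phase deletion, and NCAS0F02910 (MRPL35) to 0.0613 between the N. castellii deletions. Of the other results for named genes over all alternatives, 3654 kept direction and call, 237 lost the call and 62 gained it. The cause was not tested.

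The replicate letters gave no pairing: correlations of same-letter deviations lay between -0.174 and 0.086. With the letter as a replicate block, S. pombe had 1 call in place of 2, and no other count moved by over 1.5 times. Without the shallow S. paradoxus library, which has 34081 counts, 8 members were called at 30 min, as with it.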
